A study of Mus musculus with 18 samples.

Results

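The genes described here are a listed set of 37 SRF targets and actin cytoskeleton genes, followed over 3 fibroblast lines and 3 times of TNFα treatment. A listed gene was kept when its summed FPKM (fragments per kilobase of transcript per 1000000 mapped fragments, added over the transcripts assembled for the gene) was at least 1 in at least 2 libraries. Of the 37 genes, 35 met this rule, out of 12364 genes tested in all. Actg2 and Cnn1, which encode an actin and a calponin of smooth muscle, were listed at 0 in all 18 libraries and were not tested. The rule used the level of a gene and no difference between lines or times.

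RNA-seq was done on immortalized rela-/- mouse embryonic fibroblasts, which lack the endogenous RelA subunit of NF-κB and which had been reconstituted with wild-type RelA, termed RelA(wt), or with the mutants RelA(TA2) and RelA(Ser276Ala), by a retroviral vector carrying puromycin resistance. RelA(TA2) carries alanine substitutions in the TA2 part of the transactivation domain that contacts the TAZ1 domain of CBP/p300, and in RelA(Ser276Ala) an alanine replaces the serine that, once phosphorylated, takes part in contact with the KIX domain of CBP/p300. Each line was left untreated (0 h) or treated with 5 ng/ml TNFα for 1 h or 2 h, with 2 libraries for each of the 9 conditions, so that the comparisons ask how TNFα and the loss of either CBP/p300 contact changed transcript levels. Each RelA form was represented by 1 reconstituted line, so a standing difference between lines and an effect of the RelA form cannot be told apart. The message of Rela, from any copy, was at 156 to 187 FPKM in RelA(wt) cells, 315 to 366 in RelA(TA2) cells and 174 to 211 for RelA(Ser276Ala). Message levels do not give the amount of protein. By immunoblot, the paper found the Ser276Ala form to be made at a markedly lower protein level, with the wild-type form as reference. Whether this difference in dose affected the comparisons with that line was not tested.

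Serum response factor (SRF) binds CArG boxes, short A/T-rich elements flanked by C and G, in the promoters of immediate-early and cytoskeletal genes. Its coactivators of the MRTF family, encoded by Mkl1 and Mkl2, are held in the cytoplasm by monomeric actin and reach the nucleus when actin is driven into filaments. In fibroblasts the genes that this circuit controls encode actin, actomyosin regulators and adhesion proteins, and high levels of Acta2 and Tagln are known from contractile myofibroblasts.

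Promoter sequences are shown for 4 members, Filip1l, Fhl1, Srf and Myl6, which had the largest 1 h differences in either direction, called or not, among the members that hold a CArG box there. Each run is the RefSeq sequence from 250 bases before to 50 bases after the annotated start, in the GRCm38.p6 build, 5′ to 3′ on the coding strand, and the capitals mark CArG boxes (a pair of C, a run of A or T, and a pair of G), which were searched on both strands. The Filip1l promoter lies at chr16:57548992-57549291, plus strand, the Fhl1 promoter at chrX:56779433-56779732, plus strand, the Srf promoter at chr17:46556113-46556412, minus strand and the Myl6 promoter at chr10:128492960-128493259, minus strand.
Filip1l: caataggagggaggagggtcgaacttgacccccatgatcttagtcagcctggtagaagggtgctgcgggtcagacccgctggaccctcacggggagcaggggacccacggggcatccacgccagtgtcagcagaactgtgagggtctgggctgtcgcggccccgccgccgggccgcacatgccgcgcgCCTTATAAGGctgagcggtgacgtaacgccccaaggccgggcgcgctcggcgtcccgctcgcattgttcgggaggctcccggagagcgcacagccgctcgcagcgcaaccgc
Fhl1: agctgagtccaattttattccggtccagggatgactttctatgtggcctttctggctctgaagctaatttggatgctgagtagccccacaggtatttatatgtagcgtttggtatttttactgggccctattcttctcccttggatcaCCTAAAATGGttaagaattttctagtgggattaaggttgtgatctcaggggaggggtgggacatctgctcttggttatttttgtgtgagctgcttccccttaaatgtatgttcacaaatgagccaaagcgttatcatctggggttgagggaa
Srf: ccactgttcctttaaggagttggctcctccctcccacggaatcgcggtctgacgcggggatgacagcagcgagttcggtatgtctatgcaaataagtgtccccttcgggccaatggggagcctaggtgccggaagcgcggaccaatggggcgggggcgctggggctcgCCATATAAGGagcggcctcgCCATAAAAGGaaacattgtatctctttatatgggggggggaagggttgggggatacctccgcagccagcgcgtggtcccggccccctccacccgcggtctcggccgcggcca
Myl6: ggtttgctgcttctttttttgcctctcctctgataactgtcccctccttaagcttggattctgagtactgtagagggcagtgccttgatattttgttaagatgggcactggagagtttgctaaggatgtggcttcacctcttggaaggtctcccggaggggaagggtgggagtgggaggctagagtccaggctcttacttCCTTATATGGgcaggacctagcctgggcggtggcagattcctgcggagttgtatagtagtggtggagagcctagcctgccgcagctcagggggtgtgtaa

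The starts shown for Filip1l, Fhl1 and Myl6 lie inside the annotated gene, each of which has another start in the table without a box, and which start was used was not tested. The Srf promoter held 2 boxes, at -82 to -73 and at -62 to -53 relative to the start. The box of Filip1l lay at -62 to -53, that of Fhl1 at -102 to -93 and that of Myl6 at -50 to -41. Of the 33 listed genes with a promoter entry, 10 held a CArG box in this window (Srf, Actg1, Cnn2, Myl9, Myl6, Vcl, Filip1l, Fhl1, Fhl2 and Lima1), and 488 of 27025 genes with an entry did so (1.81%). The genes were listed as SRF targets, so the share among them follows in part from that choice and is no separate result. Actb, Actg2, Tagln and Tgfb1i1 had no entry. A κB motif, searched on both strands after the values had been seen, was found in the same window for Myl9, Flna and Pdlim5, 3 of the 33, and for 1388 of the 27025 genes (5.14%). A match describes these letters only.

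Between 24.3 M and 30 M mapped fragments lay behind each library (M, 1000000; median 27.2 M), and 95.5% to 98.3% of the fragments recovered from the tables fell in genes. Replicate libraries correlated across genes at r between 0.899 and 0.917 in FPKM, and at 0.952 to 0.967 in recovered fragments. Recovered fragments are a second measure, the fragment count of each transcript worked back from the deposited values and given per 1000000 fragments in genes. At loci with a single assembled transcript the count came from FPKM and its upper confidence limit. Elsewhere it came from FPKM, transcript length and a ratio read from the single-transcript loci of the same library. The median residual SD of this measure on the log2 scale was 0.105 against 0.299 for FPKM. All 14 fibroblast markers were measured, with a summed level of 4254 to 5703 FPKM. The smooth muscle genes Myh11, Myocd, Cnn1 and Actg2 were listed at 0 in every library, and the summed level of the 8 markers of that type was 23.1 to 34.3 FPKM in RelA(wt), 31.6 to 47.7 in RelA(TA2) and 29.1 to 46.6 for RelA(Ser276Ala). Of the other lists, 7 of 10 skeletal and cardiac muscle markers, 3 of 6 macrophage markers (Ptprc, Emr1 and Itgam), 3 of 5 endothelial markers (Pecam1, Tek and Emcn) and 4 of 5 epithelial markers stayed under 1 FPKM throughout. The others of these lists were Acta1 at 0 to 3.53 FPKM, Myl4 at 0 to 5.97, Tnnc1 at 0 to 7.81, Cd68 at 4.23 to 16.9, Csf1r at 2.38 to 16.1, Lyz2 at 0 to 2.51, Cdh5 at 1.12 to 12.3, Kdr at 0 to 3.47 and Krt8 at 1.85 to 26. In such bulk samples, fewer cells of a type and less RNA per cell cannot be told apart.

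The genes differed widely in level. Their positions are given in the mm10 build, as the deposited tables list them. Actg1 and Actb had the highest medians over the 18 libraries, 1867 and 1795 FPKM, followed by Myl6 at 846 and Pfn1 at 806. The lowest medians were 0 for Lmod1, 3.65 for Myl9 and 6.09 for Mkl2. Differences below are on the log2(FPKM + 0.5) scale unless recovered fragments are named, each with its standard error (SE), and a gene was called changed when its limma p-value, Benjamini-Hochberg adjusted over all genes tested, was under 0.05.

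At 1 h of TNFα, taken as the mean of the responses of the 3 lines, 7 of the 35 genes rose and 0 fell. Filip1l, which encodes a filamin A interacting protein, rose the most, by 1.78 (SE 0.09, limma adjusted p = 5.40e-07), a 3.44-fold change. Fhl1, a LIM-only protein of muscle and fibroblasts, rose by 1.22 (SE 0.12, limma adjusted p = 1.59e-04), and Srf itself by 0.62 (SE 0.08, limma adjusted p = 0.00121). Csrp1, Actb, Zyx and Actg1 rose by between 0.29 and 0.45. Over all genes, 1.93% rose and 2.42% fell. The median of the 35 genes was 0.06, against -0.03 over all genes.

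At 2 h, 13 of the 35 rose and 0 fell, where 3.72% of all genes rose and 5.01% fell. Fhl1 rose by 0.95, Tagln by 0.70, Csrp1 by 0.63, Srf by 0.52 and Zyx by 0.50. The smaller rises, from 0.16 to 0.32, belonged to Tpm1, Actg1, Actb, Tagln2, Myh9, Tpm4, Wdr1 and Flna. Filip1l was at -0.10 (SE 0.09, limma adjusted p = 0.561), so its mean difference from 0 h was not detectable at 2 h. The median of the 35 genes was 0.19 against -0.05 over all genes, and 27 of the 35 differences were above 0.

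In recovered fragments, 14 of the 35 rose at 1 h and 21 at 2 h, and 0 fell at either time. The background was also higher in this measure, with 5.73% of all genes up and 10.7% down at 1 h, and 12.4% up and 26.1% down at 2 h. The genes added at 1 h were Tagln, Fhl2, Tgfb1i1, Acta2, Pdlim7, Lima1 and Vcl, and those added at 2 h were Pdlim5, Tgfb1i1, Vcl, Fhl2, Acta2, Pdlim7, Actn1 and Cald1. Leaving out 1 library at a time kept between 6 and 8 calls at 1 h and between 10 and 15 at 2 h in FPKM. The Actg1 call at 1 h was lost without RelA(wt) 0 h replicate 1, RelA(wt) 1 h replicate 1, RelA(TA2) 1 h replicate 1 or RelA(Ser276Ala) 0 h replicate 1, with differences of 0.27 to 0.28 (highest limma adjusted p = 0.0709). At 2 h the Flna call was lost without any 1 of 6 libraries (RelA(wt) 0 h replicate 1 or 2 h replicate 2, RelA(TA2) either 2 h library, RelA(Ser276Ala) 0 h replicate 1 or 2 h replicate 1), with limma adjusted p up to 0.0623. The Tagln2 call was lost without any 1 of 8 (RelA(wt) 0 h replicate 1 or 2 h replicate 2, RelA(TA2) 0 h replicate 2 or either 2 h library, RelA(Ser276Ala) either 0 h library or 2 h replicate 1; limma adjusted p up to 0.0733), and the Wdr1 call without any 1 of 12 (RelA(wt) either 0 h library or 2 h replicate 1, RelA(TA2) 0 h replicate 1 or either 1 h library or either 2 h library, RelA(Ser276Ala) either 0 h library or either 2 h library; limma adjusted p up to 0.0902).

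**Figure D1:**
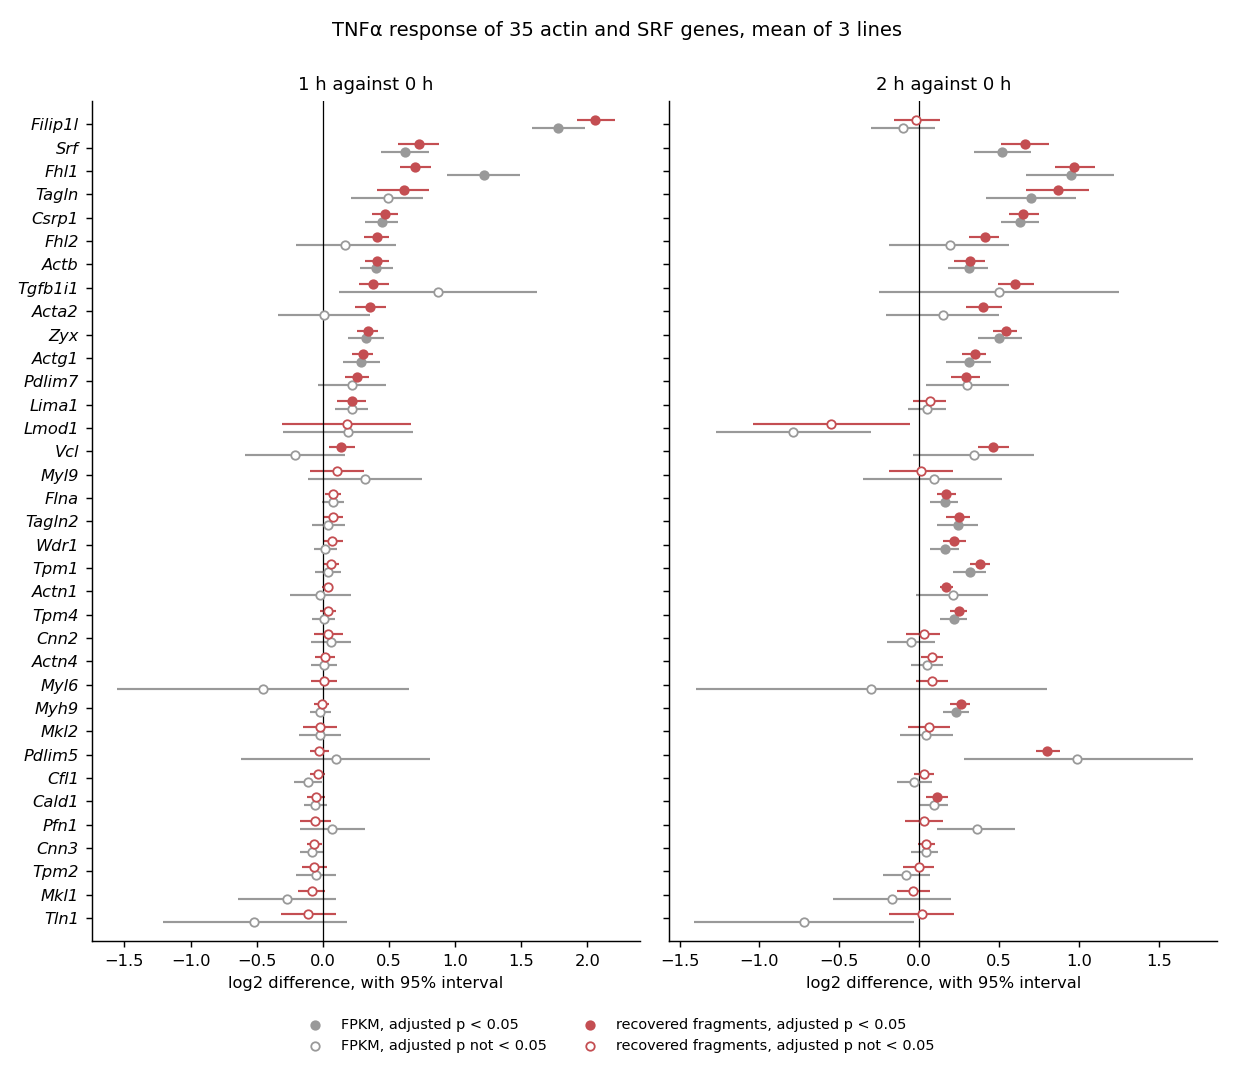
Mean TNFα response of the 35 genes at 1 h and 2 h against 0 h, as log2 differences with 95% intervals, in FPKM (grey) and in recovered fragments (red), with filled points for genes called. Filip1l stands apart at 1 h (1.78) and lies near 0 at 2 h (-0.10), while Fhl1, Srf and Csrp1 lie above 0 at both times.

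The circuit's own transcription factor was measured first. Srf (chr17:46546839-46556162, minus strand) was at 12.6 and 10.5 FPKM at 0 h, 15.5 and 14.9 at 1 h and 15.6 and 16.4 at 2 h in RelA(wt) cells, at 13.8 and 14 at 0 h, 23 and 18.8 at 1 h and 18.7 and 16.7 at 2 h in RelA(TA2) cells, and at 10.8 and 11.4 at 0 h, 19.6 and 23.2 at 1 h and 21.5 and 17.2 at 2 h in RelA(Ser276Ala) cells. In each line both libraries at 1 h and both at 2 h stood above both libraries at 0 h. By line, the 1 h difference was 0.39 (SE 0.14, limma adjusted p = 0.342) in RelA(wt), 0.56 (SE 0.14, limma adjusted p = 0.0819) in RelA(TA2) and 0.91 (SE 0.14, limma adjusted p = 0.008) in RelA(Ser276Ala) cells, so only RelA(Ser276Ala) passed the test in FPKM. In recovered fragments the 1 h rise of Srf passed in all 3 lines, at 0.64 (SE 0.12, limma adjusted p = 0.00672), 0.61 (SE 0.12, limma adjusted p = 0.00695) and 0.92 (SE 0.12, limma adjusted p = 6.23e-04). The 1 h response of Srf in RelA(Ser276Ala) minus that in RelA(wt) cells was 0.52 (SE 0.20, limma adjusted p = 0.88), with a 95% interval of 0.08 to 0.97. At 2 h the mean rise of Srf was 0.52 (SE 0.08, limma adjusted p = 0.00304) in FPKM.

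Mkl1 and Mkl2 encode the SRF coactivators MRTF-A and MRTF-B. Mkl1 (chr15:81012281-81190757, minus strand) was at 32 and 26.2 FPKM at 0 h, 23.1 and 23.4 at 1 h and 22.2 and 22.6 at 2 h in RelA(wt) cells, at 28.1 and 25.8 at 0 h, 33.9 and 26 at 1 h and 48.3 and 28.9 at 2 h in RelA(TA2) cells, and at 29.9 and 56.8 at 0 h, 28.8 and 24 at 1 h and 28.2 and 25 at 2 h in RelA(Ser276Ala) cells. Replicates of Mkl1 spread widely, and 0 h libraries lay above later ones in RelA(wt) and RelA(Ser276Ala) cells but not in RelA(TA2) cells. Mkl2 (chr16:13256481-13417529, plus strand) was at 5.69 and 5.65 FPKM at 0 h, 6.17 and 6.02 at 1 h and 6.55 and 5.58 at 2 h in RelA(wt) cells, at 7.29 and 5.78 at 0 h, 6.13 and 5.97 at 1 h and 6.25 and 5.95 at 2 h in RelA(TA2) cells, and at 6.06 and 6.48 at 0 h, 5.73 and 6.16 at 1 h and 6.55 and 7.26 at 2 h in RelA(Ser276Ala) cells, a narrow range in which all 3 lines overlapped. Neither was called in any FPKM comparison, with mean 1 h differences of -0.27 (SE 0.17, limma adjusted p = 0.536) for Mkl1 and -0.02 (SE 0.07, limma adjusted p = 0.933) for Mkl2. In recovered fragments Mkl1 was above RelA(wt) in both mutant lines over the 3 times, by 0.19 (SE 0.05, limma adjusted p = 0.00723) in RelA(TA2) and 0.21 (SE 0.05, limma adjusted p = 0.00419) in RelA(Ser276Ala) cells, and Mkl2 was called nowhere. Scaling by median-of-ratios or quantiles turned the mean 1 h difference of Mkl2 to 0.01.

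Filip1l (chr16:57353277-57572804, plus strand) was at 14.9 and 14.6 FPKM at 0 h, 53.8 and 55.3 at 1 h and 13.5 and 15.3 at 2 h in RelA(wt) cells, at 24.9 and 26.5 at 0 h, 63.6 and 61.7 at 1 h and 17.4 and 17.5 at 2 h in RelA(TA2) cells, and at 13.9 and 14.3 at 0 h, 55.3 and 82.8 at 1 h and 18.8 and 15.7 at 2 h in RelA(Ser276Ala) cells. Both 1 h libraries of each line lay far above its 0 h libraries, and by 2 h the levels were back near those of 0 h. The 1 h rise was 1.85 (SE 0.16, limma adjusted p = 6.62e-05) in RelA(wt), 1.27 (SE 0.16, limma adjusted p = 0.00158) in RelA(TA2) and 2.22 (SE 0.16, limma adjusted p = 3.03e-05) in RelA(Ser276Ala) cells. At 2 h both RelA(TA2) libraries lay below their 0 h libraries, both RelA(Ser276Ala) libraries lay above, and the RelA(wt) libraries overlapped. The 2 h difference of Filip1l was -0.54 (SE 0.16, limma adjusted p = 0.0874) in RelA(TA2) and 0.28 (SE 0.16, limma adjusted p = 0.56) in RelA(Ser276Ala) cells in FPKM. In recovered fragments it was -0.56 (SE 0.12, limma adjusted p = 0.00488) and 0.43 (SE 0.12, limma adjusted p = 0.0363), and the difference between these responses was -0.99 (SE 0.16, limma adjusted p = 0.0219), against -0.82 (SE 0.22, limma adjusted p = 0.343) in FPKM. This comparison between the mutant lines was added after the values had been seen.

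Fhl1 (chrX:56731787-56793346, plus strand) was at 28.8 and 26.4 FPKM at 0 h, 64.1 and 73.8 at 1 h and 49.7 and 45.5 at 2 h in RelA(wt) cells, at 43 and 37.6 at 0 h, 111 and 72.1 at 1 h and 82.7 and 69 at 2 h in RelA(TA2) cells, and at 28.4 and 27.2 at 0 h, 79.1 and 52.9 at 1 h and 65.8 and 59.7 at 2 h in RelA(Ser276Ala) cells. All libraries at 1 h and 2 h stood above all 0 h libraries of the same line. Its 1 h rise was 1.30 (SE 0.21, limma adjusted p = 0.0111) in RelA(wt), 1.14 (SE 0.21, limma adjusted p = 0.0201) in RelA(TA2) and 1.21 (SE 0.21, limma adjusted p = 0.0174) in RelA(Ser276Ala) cells. At 2 h it was 0.78 (SE 0.21, limma adjusted p = 0.13), 0.90 (SE 0.21, limma adjusted p = 0.0445) and 1.16 (SE 0.21, limma adjusted p = 0.0331) in the same order. The 2 h call was lost without any 1 of 14 libraries in RelA(TA2) cells (limma adjusted p up to 0.199) and of 10 libraries in RelA(Ser276Ala) cells (limma adjusted p up to 0.126). In recovered fragments the 1 h rise of Fhl1 was smaller, 0.54 (SE 0.10, limma adjusted p = 0.00649) in RelA(wt), 0.78 (SE 0.10, limma adjusted p = 4.31e-04) in RelA(TA2) and 0.78 (SE 0.10, limma adjusted p = 5.73e-04) in RelA(Ser276Ala) cells. The mean rise there was 0.70 (SE 0.06, limma adjusted p = 5.61e-06) at 1 h and 0.97 (SE 0.06, limma adjusted p = 3.49e-07) at 2 h, in the opposite order to FPKM (1.22 and 0.95). Filip1l and Fhl1 were the members called higher at 1 h in all 3 lines in FPKM, as were 0.518% of all genes.

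Csrp1 encodes a LIM-domain protein that binds α-actinin and zyxin on actin bundles, and it was the member called higher at 2 h in all 3 lines in FPKM, as were 0.404% of all genes. Csrp1 (chr1:135729197-135752229, plus strand) was at 63.3 and 61.6 FPKM at 0 h, 84.5 and 76.6 at 1 h and 103 and 98.8 at 2 h in RelA(wt) cells, at 80.5 and 89.6 at 0 h, 125 and 106 at 1 h and 139 and 132 at 2 h in RelA(TA2) cells, and at 58 and 56.8 at 0 h, 78.6 and 88.7 at 1 h and 84.9 and 81.9 at 2 h in RelA(Ser276Ala) cells. Its libraries at both later times lay above those at 0 h in every line, and in RelA(wt) and RelA(TA2) cells the 2 h libraries lay above the 1 h ones. The 2 h rise was 0.69 (SE 0.10, limma adjusted p = 0.00421) in RelA(wt), 0.67 (SE 0.10, limma adjusted p = 0.00372) in RelA(TA2) and 0.53 (SE 0.10, limma adjusted p = 0.0285) in RelA(Ser276Ala) cells. Zyxin, encoded by Zyx, sits in focal adhesions and on stress fibres. Zyx (chr6:42349828-42358395, plus strand) was at 219 and 247 FPKM at 0 h, 272 and 259 at 1 h and 308 and 312 at 2 h in RelA(wt) cells, at 242 and 250 at 0 h, 362 and 285 at 1 h and 354 and 354 at 2 h in RelA(TA2) cells, and at 223 and 218 at 0 h, 284 and 299 at 1 h and 345 and 309 at 2 h in RelA(Ser276Ala) cells. Again all treated libraries lay above the untreated ones of their line, and the 2 h rise was 0.42 (SE 0.11, limma adjusted p = 0.103), 0.53 (SE 0.11, limma adjusted p = 0.0232) and 0.57 (SE 0.11, limma adjusted p = 0.037) in RelA(wt), RelA(TA2) and RelA(Ser276Ala) cells.

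The cytoplasmic actins were the most abundant members. Actb (chr5:142903116-142906724, minus strand), which encodes β-actin, was at 1441 and 1424 FPKM at 0 h, 1895 and 1777 at 1 h and 1790 and 1782 at 2 h in RelA(wt) cells, at 1595 and 1550 at 0 h, 2172 and 1863 at 1 h and 1889 and 1801 at 2 h in RelA(TA2) cells, and at 1466 and 1513 at 0 h, 1952 and 2279 at 1 h and 1969 and 1888 at 2 h in RelA(Ser276Ala) cells. Every treated library was above the untreated libraries of its line, by a mean of 0.40 (SE 0.06, limma adjusted p = 0.00159) at 1 h and 0.31 (SE 0.06, limma adjusted p = 0.00686) at 2 h. Actg1 (chr11:120345690-120348484, minus strand), which encodes γ-actin, was at 1478 and 1570 FPKM at 0 h, 1883 and 1788 at 1 h and 1980 and 1852 at 2 h in RelA(wt) cells, at 1754 and 1807 at 0 h, 2123 and 1915 at 1 h and 2122 and 1897 at 2 h in RelA(TA2) cells, and at 1364 and 1478 at 0 h, 1727 and 2104 at 1 h and 1890 and 1920 at 2 h in RelA(Ser276Ala) cells. Its order was the same, with a mean rise of 0.29 (SE 0.06, limma adjusted p = 0.0234) at 1 h and 0.31 (SE 0.06, limma adjusted p = 0.0119) at 2 h. Both actins, like Cfl1 and Pfn1, have near-identical processed copies in the mouse genome, and how fragments that match several places were assigned is not given in the sources used here, so their levels carry that uncertainty.

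**Figure D2:**
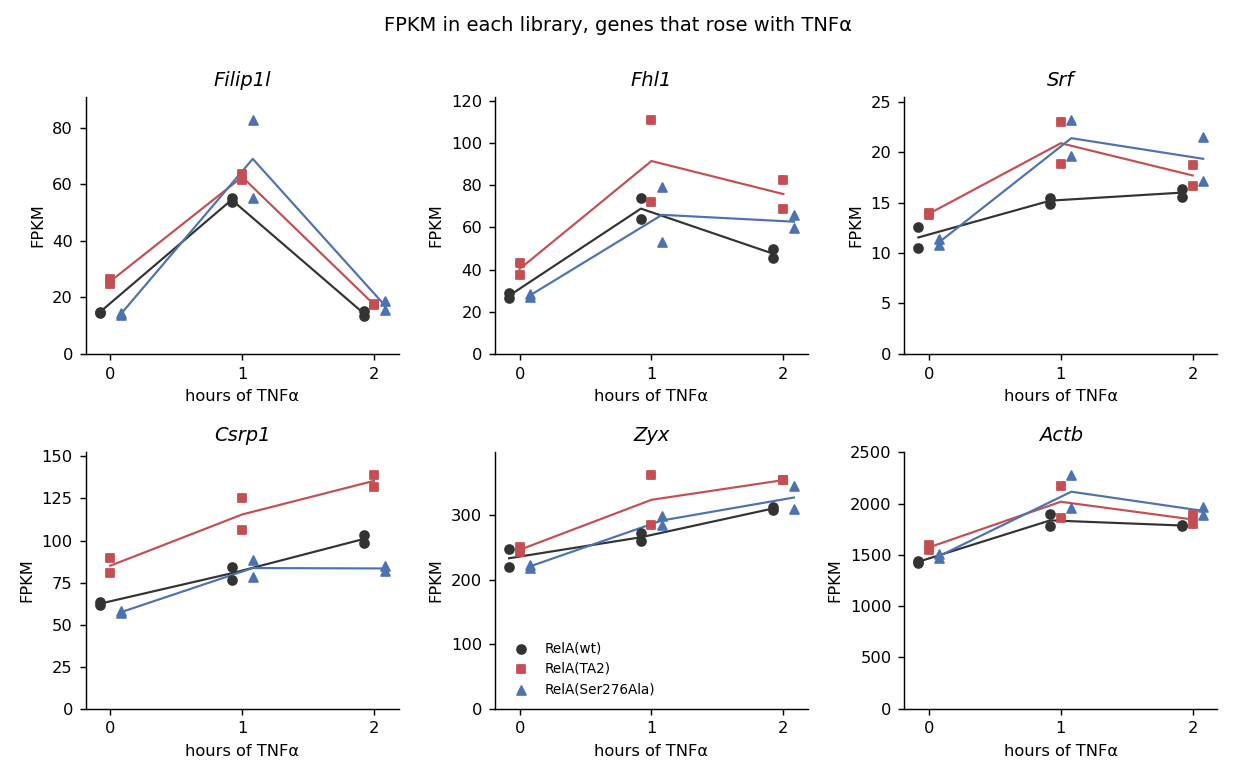
FPKM of Filip1l, Fhl1, Srf, Csrp1, Zyx and Actb in each of the 18 libraries at 0 h, 1 h and 2 h of TNFα, 1 panel a gene, points for libraries and lines through the mean of each condition. Filip1l peaks at 1 h in every line, whereas both 2 h libraries of Csrp1 and of Zyx lie above both 0 h libraries in every line.

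Tpm1, Tpm4 and Myh9, which shape contractility, were called at 2 h and not at 1 h. Tropomyosins wrap actin filaments and control myosin access. Tpm1 (chr9:67022593-67049213, minus strand) was at 370 and 351 FPKM at 0 h, 363 and 356 at 1 h and 409 and 429 at 2 h in RelA(wt) cells, at 386 and 346 at 0 h, 399 and 370 at 1 h and 527 and 493 at 2 h in RelA(TA2) cells, and at 464 and 423 at 0 h, 468 and 454 at 1 h and 521 and 531 at 2 h in RelA(Ser276Ala) cells. The 1 h libraries overlapped those of 0 h in each line, and the 2 h libraries lay above them, by a mean of 0.32 (SE 0.05, limma adjusted p = 0.00172). Tpm4 (chr8:72135292-72153129, plus strand) was at 468 and 450 FPKM at 0 h, 447 and 462 at 1 h and 514 and 531 at 2 h in RelA(wt) cells, at 507 and 510 at 0 h, 522 and 485 at 1 h and 615 and 566 at 2 h in RelA(TA2) cells, and at 488 and 472 at 0 h, 490 and 502 at 1 h and 569 and 579 at 2 h in RelA(Ser276Ala) cells. Its 2 h libraries also lay above those of 0 h in each line, by a mean of 0.22 (SE 0.04, limma adjusted p = 0.00543). Myh9 (chr15:77760589-77842115, minus strand), the heavy chain of non-muscle myosin IIA, was at 108 and 111 FPKM at 0 h, 106 and 109 at 1 h and 131 and 128 at 2 h in RelA(wt) cells, at 110 and 116 at 0 h, 114 and 111 at 1 h and 127 and 135 at 2 h in RelA(TA2) cells, and at 117 and 118 at 0 h, 116 and 115 at 1 h and 144 and 134 at 2 h in RelA(Ser276Ala) cells. Its 1 h libraries overlapped those of 0 h or lay just below them, and its 2 h libraries stood above both, by a mean of 0.23 (SE 0.04, limma adjusted p = 0.00254).

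Transgelins are actin-bundling proteins of the calponin family. Tagln (chr9:45929628-45936058, minus strand), or SM22α, was at 36.8 and 25.9 FPKM at 0 h, 36.2 and 31.6 at 1 h and 49.9 and 50.1 at 2 h in RelA(wt) cells, at 55.3 and 63.6 at 0 h, 106 and 80.9 at 1 h and 107 and 83.4 at 2 h in RelA(TA2) cells, and at 29.3 and 21.9 at 0 h, 36.4 and 46.5 at 1 h and 46.1 and 39.6 at 2 h in RelA(Ser276Ala) cells. At 2 h both libraries of each line lay above those of 0 h, with a mean rise of 0.70 (SE 0.13, limma adjusted p = 0.00652), and at 1 h this held in the mutant lines and not in RelA(wt). Tagln2 (chr1:172500246-172507375, plus strand) was at 200 and 216 FPKM at 0 h, 206 and 198 at 1 h and 216 and 227 at 2 h in RelA(wt) cells, at 228 and 199 at 0 h, 247 and 235 at 1 h and 289 and 290 at 2 h in RelA(TA2) cells, and at 242 and 245 at 0 h, 266 and 222 at 1 h and 292 and 260 at 2 h in RelA(Ser276Ala) cells. The 2 h libraries of RelA(TA2) and RelA(Ser276Ala) cells lay above those of 0 h, and those of RelA(wt) cells touched them. The 2 h difference of Tagln2 was 0.44 (SE 0.10, limma adjusted p = 0.0369) in RelA(TA2) and 0.09 (SE 0.10, limma adjusted p = 0.798) in RelA(wt) cells, and the difference between these responses was 0.35 (SE 0.14, limma adjusted p = 0.662).

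Among the other called genes, the 2 h libraries of Flna, encoding filamin A, and of Wdr1, a cofactor of cofilin, lay above those of 0 h in all 3 lines, with mean rises of 0.16 (SE 0.04, limma adjusted p = 0.0258) and 0.16 (SE 0.04, limma adjusted p = 0.0384). Lmod1, a leiomodin that nucleates actin filaments in smooth muscle, was listed at 0 in all RelA(wt) and RelA(Ser276Ala) libraries. Lmod1 (chr1:135324813-135368065, plus strand) was at 0 and 0 FPKM at 0 h, 0 and 0 at 1 h and 0 and 0 at 2 h in RelA(wt) cells, at 1.2 and 3.37 at 0 h, 3.83 and 2.85 at 1 h and 0 and 0 at 2 h in RelA(TA2) cells, and at 0 and 0 at 0 h, 0 and 0 at 1 h and 0 and 0 at 2 h in RelA(Ser276Ala) cells. It was thus listed above 0 in RelA(TA2) cells at 0 h and 1 h only, and its difference there at 2 h was called lower (-2.36, SE 0.38, limma adjusted p = 0.00695), a value that depends on the 0.5 added and is not a fold change. Lmod1 met the level rule through RelA(TA2) libraries alone and so had to differ between the lines, and it supports no count of differences.

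Line by line, fewer responses passed. In RelA(wt) cells 2 of the 35 genes rose at 1 h (Filip1l and Fhl1), where 1.03% of all genes rose and 0.574% fell, and 1 at 2 h (Csrp1), where 1.4% rose and 0.461% fell. In RelA(TA2) cells 3 rose at 1 h (Filip1l, Fhl1 and Csrp1) beside 1.12% of all genes up and 0.874% down. At 2 h 5 of the 34 genes other than Lmod1 rose (Csrp1, Tpm1, Zyx, Tagln2 and Fhl1) and 0 fell, beside 1.89% up and 2.16% down. Lmod1 was called lower there, but it met the level rule through its 0 h and 1 h libraries alone. In RelA(Ser276Ala) cells 5 rose at 1 h (Filip1l, Srf, Fhl1, Csrp1 and Actb) beside 0.938% up and 0.558% down, and 4 at 2 h (Csrp1, Fhl1, Srf and Zyx) beside 0.696% up and 0.283% down. In recovered fragments 8 genes were higher at 1 h and 18 at 2 h in RelA(wt) cells, beside 3.41% and 6.27% of all genes, with 3.47% and 6.68% lower. In RelA(TA2) cells 12 and 18 were higher, beside 3.59% and 8.97%. Filip1l was lower at 2 h, as was Lmod1, which supports no count. Of all genes, 6.75% were lower at 1 h and 18.5% at 2 h. In RelA(Ser276Ala) cells 13 and 20 were higher, beside 2.2% and 4.48%, with 3.93% and 5.76% of all genes lower. In that measure 16 of the 35 genes were called higher at 2 h in all 3 lines, as were 2.83% of all genes.

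The counts by line in FPKM depended on single libraries. In RelA(wt) cells the count at 1 h was 1 without 0 h replicate 2 or without 1 h replicate 2, and the count at 2 h was 2 without 0 h replicate 1 or without any 1 of the RelA(TA2) libraries of 0 h and 1 h. In RelA(TA2) cells the count at 1 h was 1 without 1 h replicate 1. At 2 h, with Lmod1 counted, it was 3 (2 higher and 1 lower) without either 2 h library. In RelA(Ser276Ala) cells the count at 1 h was 2 without either 0 h library and 3 (2 higher and 1 lower) without 1 h replicate 2. At 2 h in these cells it was 0 without either 0 h library or 2 h replicate 1, 2 without 2 h replicate 2, and 1 without any 1 of the RelA(wt) libraries of 1 h and 2 h. The calls of Filip1l at 1 h in each line, of Csrp1 at 2 h in RelA(wt) and RelA(TA2) cells, and of Tpm1 at 2 h in RelA(TA2) cells held whichever library was left out. That of Lmod1 at 2 h held too but carries no weight, because Lmod1 met the level rule through RelA(TA2) libraries of 0 h and 1 h alone. The Csrp1 call at 1 h in RelA(TA2) cells was lost without any 1 of 15 libraries (limma adjusted p up to 0.237), that of Tagln2 at 2 h in the same cells without any 1 of 11 (limma adjusted p up to 0.191), and that of Zyx at 2 h in RelA(Ser276Ala) cells without any 1 of 9 (limma adjusted p up to 0.143). Apart from the 2 h calls of Fhl1, given above, the other calls by line were each lost without any 1 of 1 to 7 libraries.

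A looser view counts the genes whose libraries did not overlap. At 1 h both libraries stood above both 0 h libraries for 13 of the 35 genes in RelA(wt), 13 in RelA(TA2) and 19 for RelA(Ser276Ala), where 19.9%, 11.8% and 18.9% of all genes did so. Both lay below at 1 h for 6, 5 and 5 of the 35, beside 23.1%, 30.9% and 19% of all genes. At 2 h the counts were 20, 19 and 22, beside 17.9%, 17.1% and 17.7% of all genes. Both libraries lay below at 2 h for 2, 4 and 3 of the 35, where 29.8%, 30.4% and 27.7% of all genes did. The 4 in RelA(TA2) include Lmod1, which met the level rule through 0 h and 1 h libraries of that line alone and supports no count.

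Differences in response between lines were tested directly, and limma called none of the 35 genes in FPKM. For RelA(TA2) minus RelA(wt), 0 of 35 differences were called at 1 h and 0 at 2 h, where 0.34% and 0.226% of all genes were called. For RelA(Ser276Ala) minus RelA(wt), 0 were called at 1 h and 0 at 2 h, beside 0.218% and 0.17%. For RelA(TA2) minus RelA(Ser276Ala) the counts were 0 and 0, beside 0.226% and 0.146%. At an unadjusted p under 0.05, a looser threshold, there were 5 and 6, 2 and 0, and 3 and 4 in turn. The share of all genes at that threshold was not counted, so these numbers are no result about the 35 genes. Lmod1 was tested among the 35 and supports no count. Leaving out 1 library gave up to 2 calls, both counts of 2 at 2 h without RelA(TA2) 0 h replicate 1, in RelA(TA2) minus RelA(wt) and in RelA(TA2) minus RelA(Ser276Ala). Counts of 1 came without RelA(TA2) 0 h replicate 1 or 2, RelA(wt) 0 h replicate 1, or RelA(Ser276Ala) 1 h replicate 1 or 2.

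In recovered fragments the differences from RelA(wt) called by limma were also 0 of 35 at each time, beside 1.68% and 0.294% of all genes for RelA(TA2) and 0.235% and 0.235% for RelA(Ser276Ala). RelA(TA2) minus RelA(Ser276Ala) gave 0 at 1 h (0.404% of all genes) and 2 at 2 h (0.942%), Filip1l and Fhl2. At an unadjusted p under 0.05 there were 6 and 5 for RelA(TA2) and 2 and 4 for RelA(Ser276Ala) against RelA(wt). Between the mutant lines there were 4 at 1 h. The share of all genes at that threshold was not counted here either. The difference of Fhl2, a LIM-only protein that binds SRF, was -0.64 (SE 0.11, limma adjusted p = 0.0235), against -1.32 (SE 0.41, limma adjusted p = 0.448) in FPKM. The 95% interval of RelA(TA2) minus RelA(wt) was -0.32 to 0.29 in FPKM and -0.28 to 0.19 in fragments for Csrp1 at 2 h, and -0.83 to 0.51 and -0.06 to 0.55 for Fhl1 at 1 h.

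Standing differences between the lines were taken as the mean over the 3 times, 6 libraries a line. RelA(TA2) cells had 15 of the 35 genes higher than RelA(wt) cells and 0 lower, or 14 of 34 leaving out Lmod1, which entered the test through RelA(TA2) libraries alone, while 5.76% of all genes were higher and 6.03% lower. Among these 14, the largest differences were those of genes of contractile cells: Acta2 was higher by 1.70 (SE 0.16, limma adjusted p = 7.86e-05), a 3.26-fold difference, Myl9 by 1.27 and Tagln by 1.09. Fhl2, Fhl1, Lima1, Csrp1 and Filip1l followed at 0.42 to 0.77. Cald1, Cnn2, Tagln2, Actn4, Cfl1 and Tpm4 were higher by 0.16 to 0.30. The median was 0.21 over the 35 genes and over the 34, against 0.0037 over all genes. In recovered fragments 25 of the 35 (24 of the 34) were higher and 0 lower, beside 20.6% and 20.9% of all genes. The defining smooth muscle genes Myh11 and Myocd were at 0 in every library. The summed level of that marker list was 31.6 to 47.7 FPKM in RelA(TA2), 29.1 to 46.6 in RelA(Ser276Ala) and 23.1 to 34.3 in RelA(wt) libraries. These ranges overlapped, and no difference in that sum was tested.

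Between RelA(Ser276Ala) and RelA(wt) cells fewer genes were called. In FPKM 5 genes were higher (Tpm1, Actn4, Tpm2, Tagln2 and Cfl1, by 0.20 to 0.33) and 0 lower, beside 7.21% and 5.39% of all genes. The count was 3 without RelA(wt) 1 h replicate 2 or without RelA(Ser276Ala) 0 h replicate 1. In recovered fragments 12 were higher and 3 lower, beside 24% and 20.7% of all genes, and the lower ones were Csrp1 (-0.13), Pdlim5 (-0.31) and Vcl (-0.44).

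RelA(TA2) against RelA(Ser276Ala) cells gave 8 of 34 genes higher (Acta2, Tagln, Myl9, Csrp1, Actn1, Cnn2, Cald1 and Lima1), or 9 of 35 with Lmod1, and 1 lower (Tpm1, -0.20, SE 0.05, limma adjusted p = 0.0182), beside 5.81% and 7.04% of all genes. In recovered fragments 19 of the 35 (18 of the 34) were higher and 3 lower, beside 19.8% and 24.4%. The 3 standing comparisons share their libraries and are given side by side. With the 0 h libraries alone, 10 genes were called for RelA(TA2) against RelA(wt) and 0 for RelA(Ser276Ala) against RelA(wt), beside 3.49% and 1.96% of all genes, and in recovered fragments 17 and 6, beside 22.6% and 16.2%. Lmod1 was tested among the 35 in these 0 h fits too and supports no count.

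**Figure D3:**
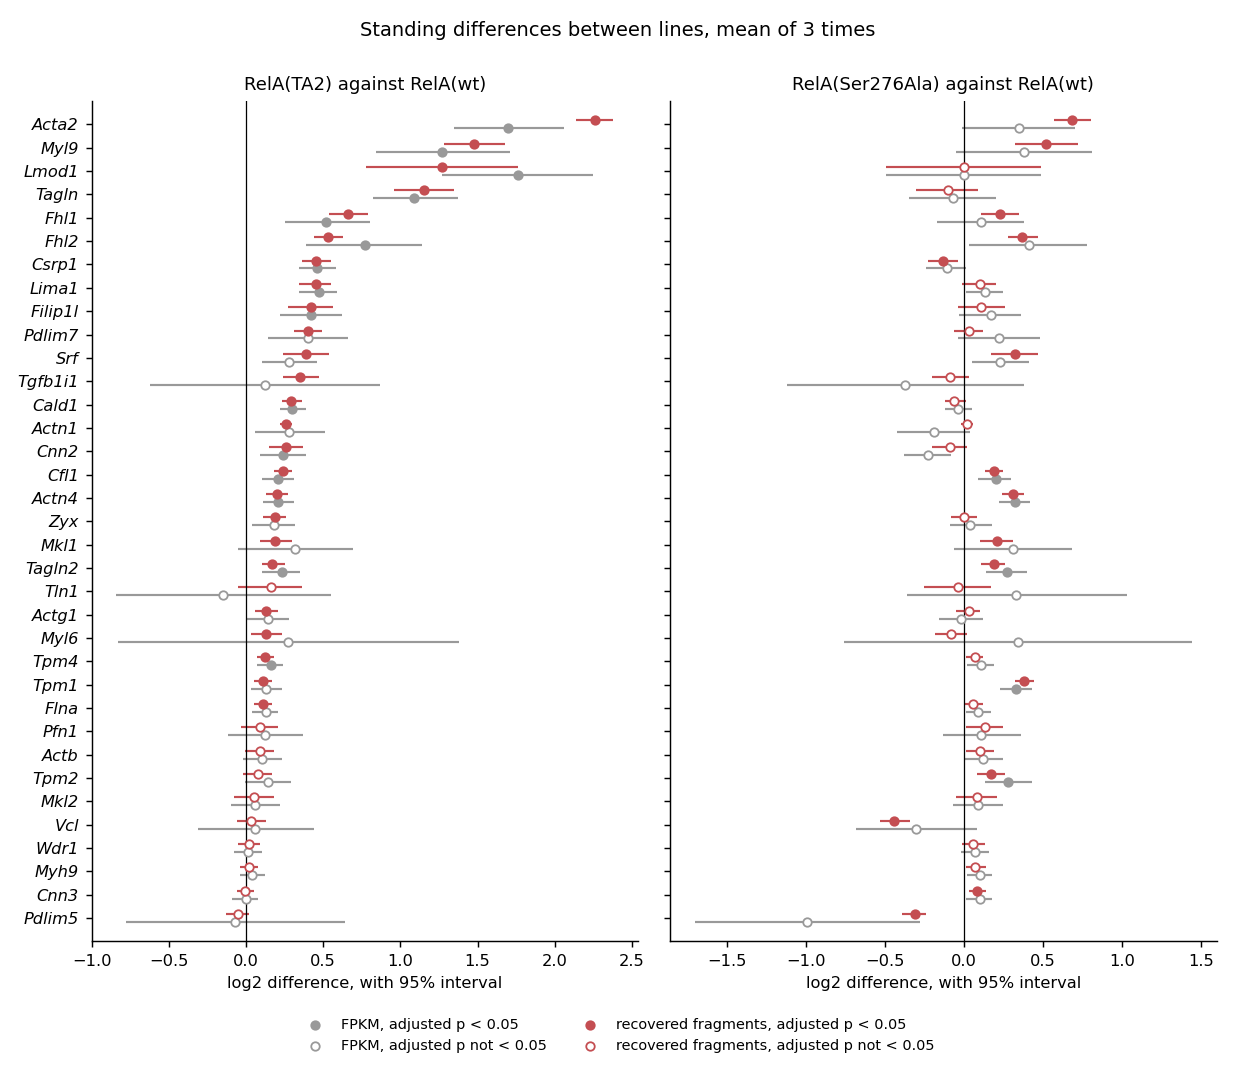
Standing line differences of the 35 genes, as log2 differences with 95% intervals, mean of the 3 times, for each mutant line against RelA(wt) cells in FPKM (grey) and in recovered fragments (red), with filled points for genes called. Acta2, Myl9 and Tagln lie farthest to the right for RelA(TA2), apart from Lmod1, and most RelA(Ser276Ala) values lie within 0.5 of 0.

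Acta2 (chr19:34241091-34255336, minus strand) encodes α-smooth muscle actin, the marker protein of myofibroblasts. It was at 53.1 and 28.9 FPKM at 0 h, 33.6 and 29.5 at 1 h and 67.4 and 37.2 at 2 h in RelA(wt) cells, at 123 and 130 at 0 h, 142 and 130 at 1 h and 125 and 130 at 2 h in RelA(TA2) cells, and at 46.5 and 47.2 at 0 h, 52 and 58.7 at 1 h and 51 and 48.4 at 2 h in RelA(Ser276Ala) cells. All 6 RelA(TA2) libraries lay above all libraries of the other two lines. It was 1.70 (SE 0.16, limma adjusted p = 7.86e-05) above RelA(wt) and 1.36 (SE 0.16, limma adjusted p = 3.46e-04) above RelA(Ser276Ala) cells, and RelA(Ser276Ala) minus RelA(wt) was 0.35 (SE 0.16, limma adjusted p = 0.205). In recovered fragments the latter was 0.68 (SE 0.05, limma adjusted p = 2.88e-06), and TNFα raised Acta2 by 0.36 (SE 0.05, limma adjusted p = 6.99e-04) at 1 h and 0.40 (SE 0.05, limma adjusted p = 1.75e-04) at 2 h, against 0.01 (SE 0.16, limma adjusted p = 0.992) and 0.15 (SE 0.16, limma adjusted p = 0.645) in FPKM, neither called. Quantile normalization turned the 1 h value in FPKM to -0.01.

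Tagln, described above for its TNFα response, was higher in all 6 RelA(TA2) libraries than in any library of the other lines, by 1.09 (SE 0.13, limma adjusted p = 2.96e-04) against RelA(wt) and 1.17 (SE 0.13, limma adjusted p = 1.94e-04) against RelA(Ser276Ala) cells. Myl9 (chr2:156775464-156781657, plus strand), the regulatory light chain of smooth muscle and non-muscle myosin, was at 2.46 and 1.69 FPKM at 0 h, 5.39 and 2.01 at 1 h and 2.1 and 2.48 at 2 h in RelA(wt) cells, at 5.17 and 8.09 at 0 h, 6.45 and 6.61 at 1 h and 7.6 and 7.1 at 2 h in RelA(TA2) cells, and at 2.93 and 3.38 at 0 h, 4.39 and 3.91 at 1 h and 2.94 and 3.16 at 2 h in RelA(Ser276Ala) cells. RelA(TA2) libraries lay above those of RelA(Ser276Ala) without overlap, and 1 RelA(wt) library at 1 h reached into their range. Its difference was 1.27 (SE 0.19, limma adjusted p = 0.00195) against RelA(wt) and 0.89 (SE 0.19, limma adjusted p = 0.013) against RelA(Ser276Ala) cells. TNFα gave a mean of 0.32 (SE 0.19, limma adjusted p = 0.532) at 1 h, not called.

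Cald1 encodes caldesmon, which restrains myosin on actin. Cald1 (chr6:34709444-34775469, plus strand) was at 313 and 305 FPKM at 0 h, 307 and 309 at 1 h and 335 and 328 at 2 h in RelA(wt) cells, at 391 and 402 at 0 h, 369 and 376 at 1 h and 418 and 389 at 2 h in RelA(TA2) cells, and at 298 and 309 at 0 h, 274 and 303 at 1 h and 329 and 342 at 2 h in RelA(Ser276Ala) cells. The 6 RelA(TA2) libraries lay above all others, by 0.30 (SE 0.04, limma adjusted p = 6.09e-04) against RelA(wt) cells, and RelA(wt) and RelA(Ser276Ala) overlapped. Lima1, or EPLIN, cross-links and stabilizes actin filaments. Lima1 (chr15:99778468-99875456, minus strand) was at 55.7 and 56.4 FPKM at 0 h, 70.3 and 68.2 at 1 h and 61.5 and 60 at 2 h in RelA(wt) cells, at 78.1 and 95.7 at 0 h, 92.6 and 88.1 at 1 h and 81.4 and 78.5 at 2 h in RelA(TA2) cells, and at 58.6 and 64.1 at 0 h, 70.7 and 78.7 at 1 h and 68.2 and 67.3 at 2 h in RelA(Ser276Ala) cells. RelA(TA2) libraries lay above all RelA(wt) libraries, by 0.47 (SE 0.05, limma adjusted p = 3.56e-04), and at 1 h the RelA(wt) and RelA(Ser276Ala) libraries stood above those of their 0 h. Cnn2, a calponin of non-muscle cells, was higher in RelA(TA2) cells than in RelA(Ser276Ala) cells in every library. Cnn2 (chr10:79988600-79995400, plus strand) was at 201 and 213 FPKM at 0 h, 198 and 229 at 1 h and 219 and 196 at 2 h in RelA(wt) cells, at 247 and 266 at 0 h, 256 and 248 at 1 h and 222 and 243 at 2 h in RelA(TA2) cells, and at 168 and 176 at 0 h, 177 and 212 at 1 h and 186 and 156 at 2 h in RelA(Ser276Ala) cells. Its difference was 0.47 (SE 0.07, limma adjusted p = 0.00137) against RelA(Ser276Ala) and 0.24 (SE 0.07, limma adjusted p = 0.0474) against RelA(wt) cells, and the latter call was lost without any 1 of 13 libraries (RelA(wt) either 0 h library or 1 h replicate 1 or either 2 h library, RelA(TA2) either 0 h library or either 1 h library or either 2 h library, RelA(Ser276Ala) either 0 h library), with limma adjusted p up to 0.117.

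The α-actinins cross-link actin filaments. Actn4 (chr7:28893254-28962280, minus strand) was at 104 and 104 FPKM at 0 h, 105 and 101 at 1 h and 107 and 105 at 2 h in RelA(wt) cells, at 121 and 116 at 0 h, 123 and 112 at 1 h and 131 and 124 at 2 h in RelA(TA2) cells, and at 130 and 128 at 0 h, 141 and 126 at 1 h and 137 and 124 at 2 h in RelA(Ser276Ala) cells. Both mutant lines lay above RelA(wt) in every library, by 0.21 (SE 0.05, limma adjusted p = 0.0129) in RelA(TA2) and 0.32 (SE 0.05, limma adjusted p = 0.00106) in RelA(Ser276Ala) cells. Actn1 (chr12:80167542-80260371, minus strand) was at 139 and 126 FPKM at 0 h, 128 and 143 at 1 h and 141 and 162 at 2 h in RelA(wt) cells, at 169 and 173 at 0 h, 157 and 151 at 1 h and 187 and 185 at 2 h in RelA(TA2) cells, and at 94.7 and 133 at 0 h, 99 and 138 at 1 h and 152 and 127 at 2 h in RelA(Ser276Ala) cells. RelA(TA2) libraries mostly stood above those of the other lines, by 0.48 (SE 0.10, limma adjusted p = 0.0125) against RelA(Ser276Ala) and 0.28 (SE 0.10, limma adjusted p = 0.11) against RelA(wt) cells.

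Against RelA(wt), Tpm1 was at 0.33 (SE 0.05, limma adjusted p = 0.00105) in RelA(Ser276Ala) and at 0.13 (SE 0.05, limma adjusted p = 0.0944) in RelA(TA2) cells, and its call between the mutant lines was lost without RelA(TA2) 1 h replicate 2 or RelA(Ser276Ala) 0 h replicate 1 (limma adjusted p up to 0.052). Tpm2 was higher in all 6 RelA(Ser276Ala) libraries than in any RelA(wt) library, by 0.28 (SE 0.07, limma adjusted p = 0.0222), a call lost without any 1 of 5 libraries (RelA(wt) 0 h replicate 1 or 1 h replicate 2, RelA(Ser276Ala) 0 h replicate 1 or 1 h replicate 1 or 2 h replicate 1), with limma adjusted p up to 0.0606. Cfl1, which encodes the filament-severing protein cofilin, was higher in both mutant lines, by 0.21 (SE 0.05, limma adjusted p = 0.0189) in RelA(TA2) and 0.20 (SE 0.05, limma adjusted p = 0.0228) in RelA(Ser276Ala) cells. Tagln2 was higher by 0.23 (SE 0.06, limma adjusted p = 0.0303) and 0.27 (SE 0.06, limma adjusted p = 0.012) in the same order. The Cfl1 call in RelA(TA2) cells was lost without RelA(TA2) 2 h replicate 1 (limma adjusted p = 0.0502), and that in RelA(Ser276Ala) cells without any 1 of 6 libraries (RelA(wt) 0 h replicate 1 or 1 h replicate 2 or 2 h replicate 2, RelA(Ser276Ala) 0 h replicate 1 or 1 h replicate 1 or 2 h replicate 1; limma adjusted p up to 0.0551). Against RelA(wt), the RelA(TA2) call of Tagln2 was lost without any 1 of 9 libraries (RelA(wt) 0 h replicate 1 or either 1 h library or either 2 h library, RelA(TA2) 0 h replicate 1 or 1 h replicate 1 or either 2 h library; limma adjusted p up to 0.0783). That of Tpm4 was lost without any 1 of 5 (RelA(wt) 0 h replicate 2 or 1 h replicate 1 or 2 h replicate 1, RelA(TA2) 1 h replicate 1 or 2 h replicate 1; limma adjusted p up to 0.0614), and that of Fhl1 without any 1 of 4 (RelA(wt) 0 h replicate 2 or 1 h replicate 1 or 2 h replicate 2, RelA(TA2) 2 h replicate 1; limma adjusted p up to 0.0551).

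**Figure D4:**
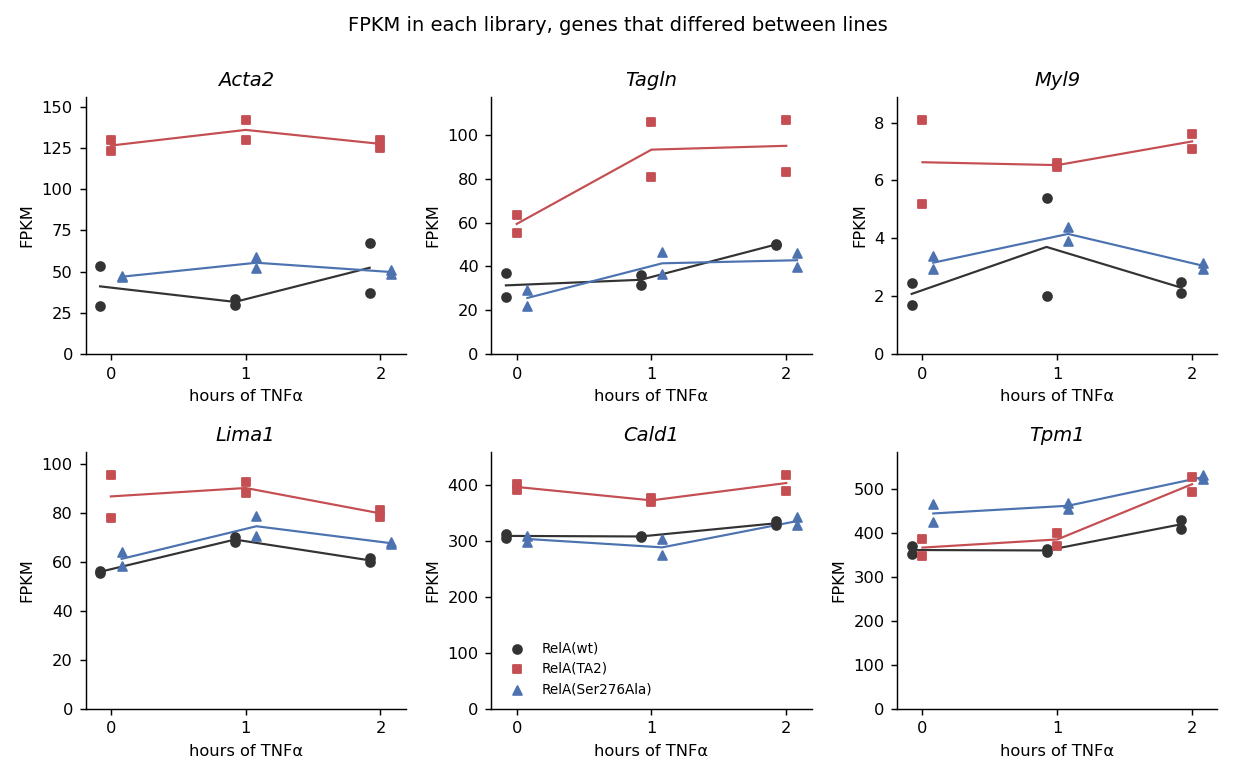
FPKM of Acta2, Tagln, Myl9, Lima1, Cald1 and Tpm1 in the 18 libraries at 0 h, 1 h and 2 h of TNFα, with a colour and symbol for each line and lines through the mean of each condition. RelA(TA2) libraries stand above the other lines for Acta2, Tagln and Cald1, and for Tpm1 the RelA(Ser276Ala) libraries reach highest.

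Srf was at 0.28 (SE 0.08, limma adjusted p = 0.0511) in RelA(TA2) and 0.23 (SE 0.08, limma adjusted p = 0.101) in RelA(Ser276Ala) cells against RelA(wt) in FPKM, neither called, and at 0.39 (SE 0.07, limma adjusted p = 9.58e-04) and 0.32 (SE 0.07, limma adjusted p = 0.00278) in recovered fragments, both called.

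For 10 of the 35 genes no FPKM comparison was called: Mkl1, Mkl2, Cnn3, Myl6, Vcl, Tgfb1i1, Pdlim5, Pdlim7, Pfn1 and Tln1. Of these, Mkl2, Pfn1 (profilin, which binds monomeric actin) and Tln1 (talin, which links integrins to actin) were not called in recovered fragments either. Several had replicates that lay far apart in FPKM and close in fragments. Pdlim5, a PDZ-LIM protein of stress fibres, was at 23.9 and 102 FPKM at 0 h, 22.9 and 23.6 at 1 h and 55.3 and 151 at 2 h in RelA(wt) cells, at 22 and 23 at 0 h, 65.9 and 71.7 at 1 h and 62.9 and 54.9 at 2 h in RelA(TA2) cells, and at 22.9 and 19 at 0 h, 17 and 18.5 at 1 h and 34.8 and 35.3 at 2 h in RelA(Ser276Ala) cells. The FPKM replicates lay far apart in RelA(wt) cells at 0 h and 2 h, and in RelA(TA2) cells the level at 1 h stood well above 0 h. The same libraries were at 133 and 126 fragments per 1000000 at 0 h, 123 and 127 at 1 h and 221 and 212 at 2 h in RelA(wt) cells, at 117 and 124 at 0 h, 125 and 128 at 1 h and 215 and 198 at 2 h in RelA(TA2) cells, and at 102 and 101 at 0 h, 89.2 and 99.8 at 1 h and 187 and 193 at 2 h in RelA(Ser276Ala) cells. In this measure all 2 h libraries stood above the 0 h libraries of their line, with a mean rise of 0.80 (SE 0.03, limma adjusted p = 3.53e-08).

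Tgfb1i1 (Hic-5) and Vcl (vinculin), proteins of focal adhesions, were called for TNFα in fragments and not in FPKM. Tgfb1i1 rose in recovered fragments by 0.38 (SE 0.05, limma adjusted p = 3.76e-04) at 1 h and 0.60 (SE 0.05, limma adjusted p = 8.34e-06) at 2 h, against 0.87 (SE 0.34, limma adjusted p = 0.248) and 0.50 (SE 0.34, limma adjusted p = 0.431) in FPKM. Vcl rose by 0.14 (SE 0.04, limma adjusted p = 0.0404) and 0.46 (SE 0.04, limma adjusted p = 1.25e-05) in fragments, against -0.21 (SE 0.17, limma adjusted p = 0.664) and 0.34 (SE 0.17, limma adjusted p = 0.276) in FPKM. Pdlim7, another PDZ-LIM protein, rose by 0.26 (SE 0.04, limma adjusted p = 0.0012) and 0.29 (SE 0.04, limma adjusted p = 3.04e-04) in fragments and was above its RelA(wt) level in RelA(TA2) cells by 0.40 (SE 0.04, limma adjusted p = 2.20e-05). Fhl2, called in FPKM for RelA(TA2) against RelA(wt) alone (0.77, SE 0.17, limma adjusted p = 0.0151), had 0 h libraries at 126 and 50.6 FPKM in RelA(TA2) cells and rose in fragments by 0.41 (SE 0.04, limma adjusted p = 5.36e-05) at 1 h and 0.41 (SE 0.04, limma adjusted p = 3.70e-05) at 2 h. Myl6, a myosin light chain whose assembled transcripts were joined with those of a neighbouring gene in the tables, was not called for TNFα in either measure.

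**Figure D5:**
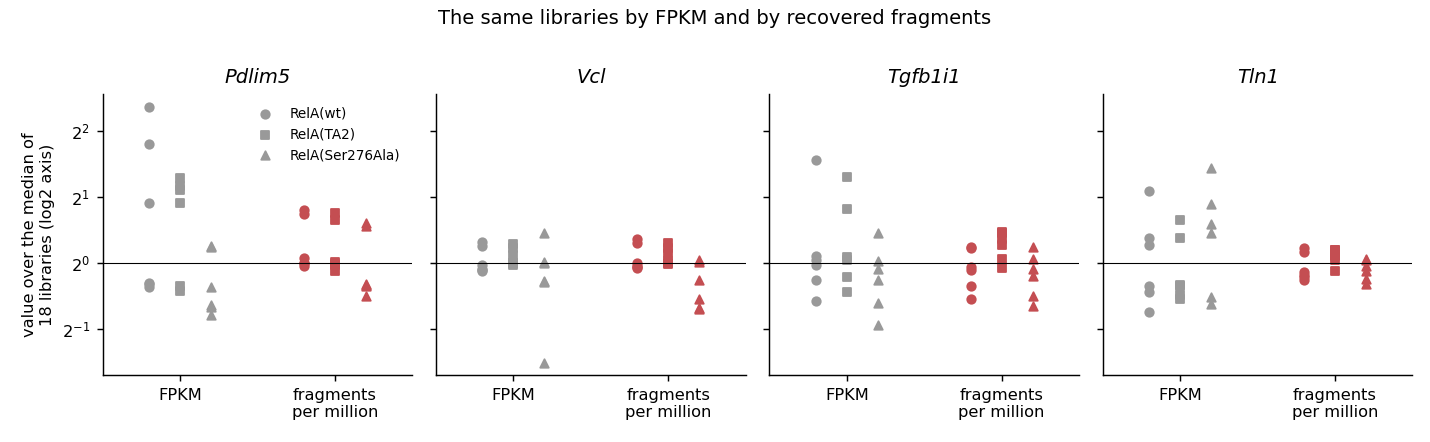
FPKM and recovered fragments per 1000000 of Pdlim5, Vcl, Tgfb1i1 and Tln1 in the 18 libraries, each divided by its median over the libraries, on a log2 axis, with a symbol for each line. The fragment values of each gene span a narrower range than its FPKM values.

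The 10 members with a CArG box in the promoter window had a median mean difference of 0.25 at 1 h, with 4 called higher, and the 22 members with an entry and without a box had 0.01, with 2 higher, beside 1.93% of all genes. At 2 h the medians were 0.14 and 0.16, with 3 and 8 higher, beside 3.72%. For RelA(TA2) against RelA(wt) they were 0.35 and 0.17, with 6 and 8 higher, beside 5.76%, the 8 including Lmod1. These splits are descriptions of these genes, without a test.

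Other genes of the circuit were counted in the same fit. Among SRF partners and immediate-early SRF targets, 12 of 16 rose and 0 fell at 1 h, beside 1.93% of all genes up and 2.42% down, and 5 rose and 1 fell at 2 h, beside 3.72% up and 5.01% down. Egr1, an immediate-early zinc-finger factor, changed by 4.35 (SE 0.15, limma adjusted p = 2.85e-08) at 1 h and by -1.46 (SE 0.15, limma adjusted p = 2.35e-04) at 2 h. Its 1 h response in RelA(TA2) minus that in RelA(wt) cells was -2.44 (SE 0.38, limma adjusted p = 0.0222), and -2.44 (SE 0.36, limma adjusted p = 0.00999) in recovered fragments. At 0 h Egr1 was at 13.5 and 15.5 FPKM in RelA(wt), 22.9 and 28 in RelA(TA2) and 12.1 and 16 in RelA(Ser276Ala) cells. At 1 h the values were 597 and 700, 150 and 279, and 417 and 296 in the same order, so both mutant lines lay below RelA(wt). Ankrd1, a muscle ankyrin repeat protein, rose by 1.51 (SE 0.07, limma adjusted p = 3.26e-07) at 1 h. Fos was listed at 0 in all libraries at 0 h and was at 8.84 and 10.2 FPKM at 1 h in RelA(wt), 5.43 and 3.17 in RelA(TA2), and 4.28 and 2.56 for RelA(Ser276Ala). It is among the 12 that rose at 1 h. Because Fos met the level rule through treated libraries alone, it could only rise and supports no count.

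Of 21 integrins and plaque proteins, 0 were called at 1 h and 2 rose at 2 h in FPKM, where recovered fragments gave 4 higher and 1 lower at 1 h, beside 5.73% and 10.7% of all genes, and 12 higher and 2 lower at 2 h, beside 12.4% and 26.1%. In RelA(TA2) against RelA(wt) cells 4 were higher and 2 lower, beside 5.76% and 6.03% of all genes, and in RelA(Ser276Ala) 3 higher and 1 lower, beside 7.21% and 5.39%. Itga11, an integrin subunit for collagen, was between 1.99 and 9.56 FPKM in RelA(wt) libraries and listed at 0 in all libraries of both mutant lines. It met the level rule through RelA(wt) alone, so it had to differ between the lines and supports no count of differences. The genes counted as lower were Itga11 and Ptk2 in RelA(TA2) cells and Itga11 alone in RelA(Ser276Ala) cells. Parvb (β-parvin) was higher in RelA(TA2) cells by 0.87 (SE 0.13, limma adjusted p = 0.00177) in FPKM and 0.90 (SE 0.04, limma adjusted p = 1.53e-08) in recovered fragments. In RelA(Ser276Ala) cells it was higher by 0.72 (SE 0.13, limma adjusted p = 0.00495) in FPKM, with 3 libraries at 14.1 to 15.4 FPKM and 3 at 5.96 to 7, and by 0.15 (SE 0.04, limma adjusted p = 0.00598) in fragments. Itga3 was higher by 0.38 (SE 0.08, limma adjusted p = 0.0122) in RelA(TA2) and 0.50 (SE 0.08, limma adjusted p = 0.00257) in RelA(Ser276Ala) cells.

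Of 30 Arp2/3, capping, severing and monomer-binding genes, 0 were called at 1 h and 1 rose at 2 h in FPKM, against 1 higher and 2 lower at 1 h and 12 higher and 4 lower at 2 h in recovered fragments, with the same shares of all genes beside them as for the integrins. Each mutant line had 5 of them higher and 2 lower than RelA(wt), beside 5.76% and 6.03% of all genes for RelA(TA2) and 7.21% and 5.39% for RelA(Ser276Ala). Pfn2, another profilin, differed by -0.53 (SE 0.05, limma adjusted p = 3.88e-05) in RelA(TA2) and -0.29 (SE 0.05, limma adjusted p = 0.00222) in RelA(Ser276Ala) cells. Tmsb10, a thymosin that binds monomeric actin, was higher by 0.35 (SE 0.07, limma adjusted p = 0.00723) and 0.31 (SE 0.07, limma adjusted p = 0.0116), and the tropomyosin Tpm3 by 0.20 (SE 0.04, limma adjusted p = 0.00679) in RelA(Ser276Ala) cells.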

How the data were processed

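Sequencing and processing were those of the study: reads were demultiplexed with CASAVA 1.8.2, aligned with TopHat2 2.0.5 and Bowtie2 2.0.0.7 to mm10, and assembled with Cufflinks 2.0.2, as the methods and the submitters' processing notes state. The authors deposited, for each library, a transcript table with FPKM values and their confidence limits, which were the values used here. Cuffdiff comparisons were not used.

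FPKM were summed over the transcripts of a gene, with gene names taken from the deposited merged annotation. The 12364 genes that reached 1 FPKM in 2 or more libraries entered limma 3.58.1 (R 4.3.3) on log2(FPKM + 0.5), with 1 mean for each of 9 conditions, a variance trend and 9 residual degrees of freedom. Tests were two-sided, and p-values were Benjamini-Hochberg adjusted over all genes tested. As an alternative, fragment counts were recovered and given per 1000000 fragments in genes (11890 genes). Counts came from FPKM and its upper limit at loci with a single assembled transcript. At other loci they came from FPKM, length and a ratio read from the single-transcript loci. Of the single-transcript counts under 500, 88.9% to 90.2% fell within 0.02 of a whole number, and the other loci were not part of that check. The recovered counts derive from the same deposited FPKM and are no independent check on them. Away from single-transcript loci they also carry any error in the assembled transcripts, their length and that ratio. Assembled transcripts that joined neighbouring genes affected 509 genes, of which 494 were tested and 1 is described here (Myl6).

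Each library gave between 23263 and 25727 assembled transcripts. The labels state no pairing by replicate number, and none was used in the main fit. Over 36 pairs of conditions, deviations of same-numbered libraries correlated at -0.0739 to 0.0991 in FPKM and at up to 0.283 in fragments. Such correlations cannot show whether same-numbered libraries were made together. Values in every library are printed for up to 20 called genes with the smallest adjusted p and for Srf, Mkl1, Mkl2 and Acta2, and up to 3 genes are named from each wider list by smallest adjusted p. The members and all lists were chosen with earlier results of these data known. The methods describe the replicates as independent. Fits were tested on simulated data. Promoters came from RefSeq (GRCm38.p6), where Mkl1 and Mkl2 matched as Mrtfa and Mrtfb. Cells with empty vector were not analysed here. One wider gene list is not reported here. Alternatives were other amounts added before the logarithm (0.1 and 1), other filters, scalings and isoform choices, 0 h libraries alone, a replicate block and leaving out each library.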

Additional observations from a re-analysis of the deposited data

Results flagged for a closer look

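For the following genes, both libraries of one line moved one way from 0 h and both libraries of another line moved the opposite way in FPKM, or the difference between responses was called. At 1 h, Pdlim5 rose in the RelA(TA2) libraries and was lower in those of RelA(wt), with a difference of 2.66 (SE 0.79, limma adjusted p = 0.299), and against RelA(Ser276Ala) it was 1.82 (SE 0.79, limma adjusted p = 0.675). In recovered fragments the same differences were 0.11 (SE 0.08, limma adjusted p = 0.523) and 0.18 (SE 0.08, limma adjusted p = 0.465). For Vcl at 1 h, RelA(Ser276Ala) minus RelA(wt) was -0.81 (SE 0.42, limma adjusted p = 1) and RelA(TA2) minus RelA(Ser276Ala) was 0.83 (SE 0.42, limma adjusted p = 0.723), against 0.24 (SE 0.11, limma adjusted p = 1) and -0.18 (SE 0.11, limma adjusted p = 0.556) in fragments. For Pfn1 at 1 h, RelA(Ser276Ala) minus RelA(wt) was 1.04 (SE 0.27, limma adjusted p = 0.397), against -0.06 (SE 0.13, limma adjusted p = 1) in fragments.

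At 2 h, the Mkl1 response in RelA(TA2) cells differed from RelA(wt) by 0.83 (SE 0.41, limma adjusted p = 0.72) and from RelA(Ser276Ala) by 1.09 (SE 0.41, limma adjusted p = 0.606), and in fragments by 0.21 (SE 0.12, limma adjusted p = 0.428) and 0.21 (SE 0.12, limma adjusted p = 0.445). None of these differences passed the adjusted threshold in either measure. For Filip1l at 2 h, RelA(TA2) minus RelA(Ser276Ala) was -0.82 (SE 0.22, limma adjusted p = 0.343) in FPKM and -0.99 (SE 0.16, limma adjusted p = 0.0219) in fragments. For Fhl2 it was -1.32 (SE 0.41, limma adjusted p = 0.448) and -0.64 (SE 0.11, limma adjusted p = 0.0235). The differences of Filip1l and Fhl2 passed in recovered fragments, and the comparison between the mutant lines was chosen after seeing the data.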

How the results depend on the processing

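For 87 gene values in the text, 1008 values under other settings kept direction and side of the threshold, 83 lost the call, 16 gained one and 14 changed sign, and with 1 library left out the numbers were 1379, 166, 6 and 15. In recovered fragments the called genes numbered 14 and 21 for the mean responses at 1 h and 2 h, 8 and 18 for RelA(wt), 12 and 20 for RelA(TA2), 13 and 20 for RelA(Ser276Ala), 25, 15 and 22 for RelA(TA2) against RelA(wt), RelA(Ser276Ala) against RelA(wt) and RelA(TA2) against RelA(Ser276Ala), and 2 for the 2 h response of RelA(TA2) minus RelA(Ser276Ala). These counts add higher and lower calls. Lmod1, which supports no count, is in the 20 for RelA(TA2) at 2 h, in the 25 and in the 22. Without it there were 18 higher and 1 lower, 24 higher and 0 lower, and 18 higher and 3 lower. Lmod1 also stays among the genes tested under the settings that follow. Fragments from 0 h libraries alone, chosen after seeing the data, gave 18 for RelA(TA2) against RelA(Ser276Ala), and FPKM from 0 h libraries alone gave 0 for RelA(Ser276Ala) against RelA(wt). The highest isoform alone gave 1 and 2 for RelA(wt) at 1 h and 2 h, 1 for RelA(TA2) and 3 for RelA(Ser276Ala) at 1 h, and 11 for RelA(Ser276Ala) against RelA(wt). Fits on only the libraries compared, with fewer degrees of freedom, gave 1 and 0 for RelA(wt), 0 for RelA(TA2) at 2 h, 0 and 0 for RelA(Ser276Ala), and 1 for the 1 h response of RelA(TA2) minus RelA(Ser276Ala). With single zeros set to missing the counts were 3 for RelA(wt) at 2 h, 8 for RelA(Ser276Ala) against RelA(wt), 1 for the 2 h response of RelA(TA2) minus RelA(wt), and 1 at each time for RelA(TA2) minus RelA(Ser276Ala). Quantile normalization gave 2 for RelA(TA2) at 2 h, and a fit without a variance trend gave 1 for the 2 h response of RelA(TA2) minus either other line. The causes of these shifts were not tested. For the highest isoform, compared-libraries, missing-zero, quantile and no-trend fits, the share of all genes called was not counted. Nor was it for the 0 h comparison of the mutant lines or with 1 library left out. Counts under these settings show how the number of calls moved and are no result about the 35 genes.

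With 1 library left out, counts ranged from 1 to 3 and 1 to 2 for RelA(wt) at 1 h and 2 h, 1 to 4 and 3 to 7 for RelA(TA2), 2 to 7 and 0 to 6 for RelA(Ser276Ala), 3 to 7 for RelA(Ser276Ala) against RelA(wt), 0 to 1 for each 1 h difference in response and 0 to 2 for the 2 h differences of RelA(TA2) minus either other line. No value that changed sign was called under the setting that turned it. Srf in RelA(Ser276Ala) against RelA(wt) was -0.05 in 0 h libraries, and in RelA(TA2) against RelA(Ser276Ala) it ranged from -0.0003 to 0.10. Mkl1 was -0.10 for RelA(TA2) against RelA(wt) in 0 h libraries, and against RelA(Ser276Ala) -0.14 with the highest isoform, -0.02 in fragments, -0.61 in 0 h libraries, -0.12 in fragments of 0 h libraries and -0.13 to 0.17 with 1 library left out. Mkl2 was 0.01 at 1 h under median-of-ratios and quantile scaling, -0.23 at 2 h and -0.34 for RelA(TA2) against RelA(wt) with the highest isoform, and 0.05 and 0.04 for RelA(TA2) against RelA(Ser276Ala) in FPKM and fragments of 0 h libraries. Leaving out 1 library gave Mkl2 -0.07 to 0.03 at 1 h, -0.01 to 0.10 at 2 h and -0.08 to 0.02 for the last comparison. Acta2 at 1 h was -0.01 under quantile normalization and -0.13 to 0.15 with 1 library left out, and Tagln2 for RelA(TA2) against RelA(wt) was -0.02 in fragments of 0 h libraries.

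A replicate block gave 8 and 13 called genes for the mean responses at 1 h and 2 h, 2 and 1 for RelA(wt), 2 and 6 for RelA(TA2), 5 and 3 for RelA(Ser276Ala), 14, 5 and 11 for the standing differences in the order above, and 0 for every difference in response. For this fit too the share of all genes called was not counted. The labels state no pairing behind the block, and same-numbered libraries correlated at up to 0.283 in fragments. With 2 libraries a condition and 1 line a RelA form, the spread of FPKM limits which small changes can be seen, and a call that was missed does not show that lines respond alike.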
